A study of Mus musculus with 8 samples.

Results

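Skeletal muscle builds its thick filaments from a small family of myosin heavy chain genes, and the levels, shares and ratios of 8 of these genes were followed here in the aging mouse gastrocnemius, the large calf muscle. The 8 genes, Myh4, Myh1, Myh2, Myh7, Myh7b, Myh6, Myh3 and Myh8, were taken by symbol from 49315 genes counted in each library, and all 8 passed the filter on low counts. The muscle came from C57BL/6 mice aged 3, 12, 24 or 30 months, with no other genotype or treatment given in the labels, and was frozen before RNA extraction with Trizol and library preparation with a NEBNext Ultra RNA kit. RNA was sequenced in 2 libraries per age, 8 in all. Whether the paired libraries of each age stem from different animals is not stated, and p-values then measure only the spread between these libraries, which may be technical.

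Each muscle fibre is classed largely by the myosin heavy chain it makes. Myh4, Myh1 and Myh2 encode the chains of fast type IIB, IIX and IIA fibres, in falling order of contraction speed, while Myh7 encodes the beta chain of slow type I fibres, which is also the main chain of the adult heart in large mammals. Myh7b encodes an ancient slow-type chain and is expressed as RNA in heart, slow muscle and specialised muscles, and Myh6 encodes the alpha chain of the adult mouse heart. Myh3 and Myh8 encode the embryonic and neonatal chains, which are made in developing fibres and again in fibres that regenerate. The mouse gastrocnemius is known as a mainly fast muscle with a small slow region.

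In GRCm38 coordinates, as the deposited files give them, 5 of the genes lie in 1 cluster on the plus strand of chromosome 11. Along it come Myh3 (ENSMUSG00000020908, chr11:67078300-67102291), Myh2 (ENSMUSG00000033196, chr11:67171027-67197517), Myh1 (ENSMUSG00000056328, chr11:67200052-67224575), Myh4 (ENSMUSG00000057003, chr11:67238029-67260446) and Myh8 (ENSMUSG00000055775, chr11:67277124-67308634). The closest neighbours among them, Myh2 and Myh1, are 2.5 kb apart, and Myh3 stands 68.7 kb before Myh2. The heart and slow genes Myh6 (ENSMUSG00000040752, chr14:54941981-54966927) and Myh7 (ENSMUSG00000053093, chr14:54970688-54994634) lie 3.8 kb apart on the minus strand of chromosome 14. Myh7b (ENSMUSG00000074652, chr2:155611212-155634307) is on the plus strand of chromosome 2.

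Promoter windows of 300 bases, from 250 before to 50 after the annotated RefSeq start, were found for all 8 genes in the RefSeq table of GRCm38.p6. They were 9 windows in all, with an extra window for Myh7. Those of Myh2, Myh1, Myh4 and Myh8 share a run of 14 identical bases, which occurs on either strand in 4 of the 32851 windows of that table, these 4. The stretches around it are shown because they are the sequence that the fast and neonatal genes of the cluster have in common, with the shared run in capitals. All are on the plus strand, and the run begins 125, 160, 158 and 54 bases before the start of Myh2, Myh1, Myh4 and Myh8.
Myh2 (chr11:67170857-67170945): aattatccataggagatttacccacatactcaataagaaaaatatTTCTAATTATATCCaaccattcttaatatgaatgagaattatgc
Myh1 (chr11:67199897-67199985): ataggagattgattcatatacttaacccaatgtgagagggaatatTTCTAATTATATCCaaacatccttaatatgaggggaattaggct
Myh4 (chr11:67237609-67237697): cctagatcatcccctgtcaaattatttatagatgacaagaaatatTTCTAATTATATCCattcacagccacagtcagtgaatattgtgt
Myh8 (chr11:67277025-67277113): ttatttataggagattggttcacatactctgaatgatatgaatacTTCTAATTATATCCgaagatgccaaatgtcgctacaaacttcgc

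Lined up on the run without gaps, these 89-base stretches were identical at 40.4% to 55.1% of positions between pairs of genes. Known motifs were searched in the windows on both strands. The MEF2 site, bound by a family of muscle transcription factors, matched in Myh1, Myh4 and Myh8 and in 3.2% of all windows. The CArG box, bound by serum response factor, matched in Myh4 alone of the 8 genes and in 1.6% of all windows. TATAAA matched in 6 of the 8 genes (Myh1, Myh2, Myh3, Myh4, Myh6 and Myh8) and in 13.6% of all windows. The E-box CANNTG, bound by MyoD and its relatives, was in 6 of the 8 genes and in 72.3% of all windows. The MCAT element CATTCC, bound by TEAD factors and classically described in the slow myosin promoter, was in Myh1, Myh4, Myh6 and Myh7 and in 14.7% of all windows. Of the windows of Myh7, that at chr14:54994577-54994876 holds the element and that at chr14:54994500-54994799 does not. In Myh7 it lay on the opposite strand, and the stretch on the minus strand is shown for the gene whose level moved most, with the reverse complement of the element in capitals.
Myh7 (chr14:54994795-54994854): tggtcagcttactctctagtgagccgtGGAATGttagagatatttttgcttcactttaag
A match of this kind is a description of the letters and no evidence of binding.

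Introns of Myh6, Myh7 and Myh7b hold miRNA genes, known together as the myomiRs of the myosin genes. Their mature sequences, from the RefSeq table of GRCm38.p6, are shown because the miRNA and its host come from 1 transcription unit, with the seed (bases 2 to 8) in capitals.
miR-208a-3p (in Myh6): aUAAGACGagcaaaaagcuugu
miR-208b-3p (in Myh7): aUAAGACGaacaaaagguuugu
miR-499-5p (in Myh7b): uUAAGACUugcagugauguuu
miR-208a-3p and miR-208b-3p share the whole seed, and miR-499-5p shares its first 6 bases with both. These libraries do not measure mature miRNAs. The hairpin genes gathered 0 to 4 counts per library, and the 8 counts of Mir208b were 1 and 2 at 24 months, 4 and 1 at 30 months and 0 in all libraries of 3 and 12 months, too few to compare.

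Library totals ran from 42404254 to 59245029 counts, and a count of 0 allows up to 0.0506 to 0.0707 CPM (counts scaled to 1000000 per library), a limit that covers counting error only. The fibre markers Acta1, Ckm, Mb, Ttn, Neb and Des summed to 193000 to 296000 CPM in every library, as the tissue label calls for. The 8 myosin genes took 5.02% to 7.68% of all counts. Transcripts of 9 kidney genes summed to 47.9 and 15.3 CPM at 3 months, 4.95 CPM in replicate 1 of 12 months, 3.56 CPM in replicate 1 of 24 months and 2.82 CPM in replicate 2 of 30 months, against 0.117 to 0.449 CPM in the other 3 libraries. These 5 libraries are called the set with kidney transcripts, and tests are given with and without the set as a term. Replicate 2 of 30 months also had the highest summed markers of macrophages (257 CPM, against 92.2 to 152), of nerve and Schwann cells (152 against 48.4 to 127) and of smooth muscle (180 against 104 to 149). In bulk tissue, fewer cells of a type and less RNA per cell cannot be told apart.

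Levels of different genes were compared as RPKM, CPM divided by the summed exon length in kb that the files give, which ran from 6.02 kb for Myh4 to 11.8 kb for Myh8. The order was nearly the same at every age. Myh4 was highest, followed by Myh1, Myh2 and Myh7, then Myh3 and Myh8, then Myh7b and Myh6. Myh1 and Myh2 overlapped between libraries at 12 and 30 months, Myh3 and Myh8 overlapped at all 4 ages, and Myh7b and Myh6 overlapped at 3 months, so these neighbours had no clear order there. Most of this order is wider than any length effect, since the lowest Myh4 level was 5126 RPKM and the highest Myh6 level 0.658 RPKM. The place of Myh8 does depend on length, because its exon length is 11772 bp and its coding length 5885 bp. By coding length its mean log2 ratio to Myh3 was 0.89 in the 3 month libraries, 0.84 in those of 12 months, 0.99 in those of 24 months and -0.03 in those of 30 months, in place of -0.05, -0.10, 0.04 and -0.98 by exon length.

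**Figure D1:**
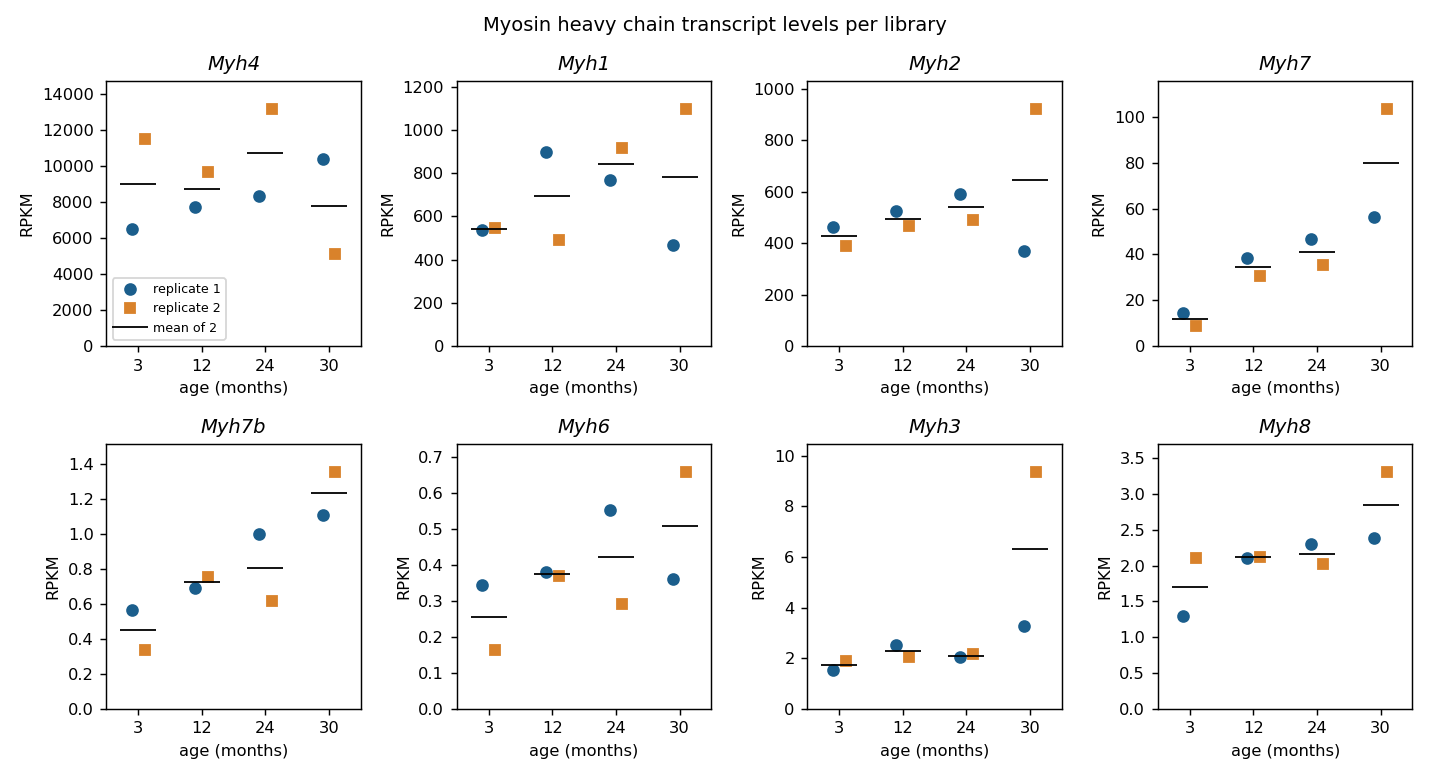
Level of each myosin heavy chain gene in RPKM (vertical axis, from 0, a scale of its own in each panel) against age in months, with 1 point per library and a bar at the mean of the 2. Myh7 is the gene whose libraries of 12, 24 and 30 months all lie well above those of 3 months, while the 2 libraries of 30 months lie far apart for all 3 fast genes.

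Of the fast chains, Myh4 of type IIB fibres dominated every library. Its levels were 6500 and 11470 RPKM in replicates 1 and 2 of 3 months, 7723 and 9678 in those of 12 months, 8311 and 13130 in those of 24 months, and 10400 and 5126 in those of 30 months. Values below keep that order of replicates. The ages overlapped fully, and the highest library (replicate 2 of 24 months) was 2.56 times the lowest (replicate 2 of 30 months). Myh1 of type IIX fibres was at 535 and 545 RPKM in the 3 month libraries, 898 and 489 in those of 12 months, 767 and 914 in those of 24 months, and 469 and 1094 in those of 30 months. Both libraries of 24 months lay above both of 3 months, and at 12 and 30 months 1 library was above and 1 below. Myh2 of type IIA fibres was at 462 and 391 RPKM in the 3 month libraries, 524 and 467 in those of 12 months, 593 and 490 in those of 24 months, and 370 and 920 in those of 30 months. The libraries of 12 and 24 months were above both of 3 months, by little, and those of 30 months held the lowest and the highest value of the series.

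The slow chain gene Myh7 moved most. It stood at 14.4 and 8.97 RPKM in the 3 month libraries, 38.3 and 30.6 in those of 12 months, 46.6 and 35.5 in those of 24 months, and 56.2 and 103 in those of 30 months. The means went from 11.7 ± 3.9 RPKM at 3 months to 79.8 ± 33 RPKM at 30 months (SD, n = 2). No library of a later age overlapped those of 3 months, both libraries of 30 months were above all others, and the libraries of 12 and 24 months overlapped each other. The highest library was 11.5 times the lowest, against 2.33 to 6.14 times for the other 7 genes. Myh7b was at 0.563 and 0.338 RPKM in the 3 month libraries, 0.693 and 0.756 in those of 12 months, 0.999 and 0.614 in those of 24 months, and 1.11 and 1.35 in those of 30 months. Its levels followed the same order of ages at a far lower level, with 30 months above every other library and 3 months below. At 121 to 477 counts per library, Myh7b was measured with far fewer counts than Myh7, which had 4152 to 47200.

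The heart chain gene Myh6 was the lowest of the 8. It was at 0.344 and 0.164 RPKM in the 3 month libraries, 0.381 and 0.369 in those of 12 months, 0.552 and 0.292 in those of 24 months, and 0.36 and 0.658 in those of 30 months, from 56 to 222 counts per library. The ages overlapped at 3 and 24 months, and both libraries of 12 and of 30 months lay above those of 3 months. Defining heart genes were near 0 in every library, with Nppa at up to 0.195 CPM, Tnni3 at up to 0.507, Mybpc3 at up to 0.173, Myl7 at up to 0.0216 and Nppb at up to 0.0192 CPM. Of the 9 heart markers, Smpx and Sbk2, which skeletal muscle also expresses, made up nearly all of a sum of 187 to 347 CPM, and the calcium release channel gene Ryr2 went from 0.278 CPM in replicate 2 of 3 months to 3.16 CPM in replicate 2 of 30 months.

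Of the developmental chains, embryonic Myh3 was at 1.52 and 1.90 RPKM in the 3 month libraries, 2.505 and 2.05 in those of 12 months, 2.04 and 2.15 in those of 24 months, and 3.27 and 9.35 in those of 30 months. The first 3 ages lay close together, and both libraries of 30 months stood above them, 1 of them by far. Neonatal Myh8 was at 1.29 and 2.10 RPKM in the 3 month libraries, 2.11 and 2.12 in those of 12 months, 2.30 and 2.02 in those of 24 months, and 2.39 and 3.30 in those of 30 months. Replicate 1 of 3 months was low and both libraries of 30 months were above the rest, but the gap from 2.30 to 2.39 RPKM is small. Near-identical stretches limit these values. Of all 50-base windows of the longest coding transcript, 26.9% for Myh2, 26.7% for Myh1, 22.6% for Myh6, 22.2% for Myh7, 21.4% for Myh8 and 18.9% for Myh4 also occur in another gene, against 4.81% for Myh3 and 0 for Myh7b. How reads that match several genes were treated is likewise not given, and with 1640713 or more Myh4 counts per library against 703 to 2069 of Myh8 and 56 to 222 of Myh6, the weight of stray reads in these low genes was not tested. For Myh6 the nearest source is Myh7, the only other gene that holds its shared 100-base windows (11.4% of them). Myh7 had 4152 to 47200 counts per library, and the weight of its stray reads in Myh6 levels and in the ratio of Myh7 to Myh6 was not tested.

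Expressed as shares of the summed RPKM of the 8 genes, Myh4 made up 86.5% and 92.4% in the 3 month libraries, 84.0% and 90.7% in those of 12 months, 85.5% and 90.1% in those of 24 months, and 92.0% and 70.6% in those of 30 months. The means were 89.4% ± 4.2, 87.4% ± 4.7, 87.8% ± 3.3 and 81.3% ± 15 (SD, n = 2). Those of 3, 12 and 24 months differed by less than their SDs. The mean of 30 months was lower through replicate 2 alone, and its SD was the largest. Replicate 2 of 30 months was the library with the least Myh4, and replicate 1 of the same age was second only to replicate 2 of 3 months. Type IIX and IIA chains, Myh1 and Myh2 together, made up 13.3% and 7.53% in the 3 month libraries, 15.5% and 8.96% in those of 12 months, 14.0% and 9.63% in those of 24 months, and 7.43% and 27.8% in those of 30 months. The sum of both thus spanned its whole range within 30 months.

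The slow chains, Myh7 with Myh7b, were a minor part throughout, at 0.199% and 0.0749% in the 3 month libraries, 0.424% and 0.294% in those of 12 months, 0.489% and 0.247% in those of 24 months, and 0.507% and 1.44% in those of 30 months. Every later library had a higher slow share than both of 3 months, and both of 30 months were higher than all others. By coding length, which is shorter than the exon length for Myh7 (5805 against 8586 bp), the share of Myh7 alone was 0.270% and 0.102% at 3 months and 0.704% and 1.96% at 30 months. The developmental chains Myh3 and Myh8 together made up 0.0374% and 0.0322% in the 3 month libraries, 0.0502% and 0.0391% in those of 12 months, 0.0447% and 0.0286% in those of 24 months, and 0.0501% and 0.174% in those of 30 months. Only replicate 2 of 30 months stood apart in that sum, since replicate 1 lay level with replicate 1 of 12 months.

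**Figure D2:**
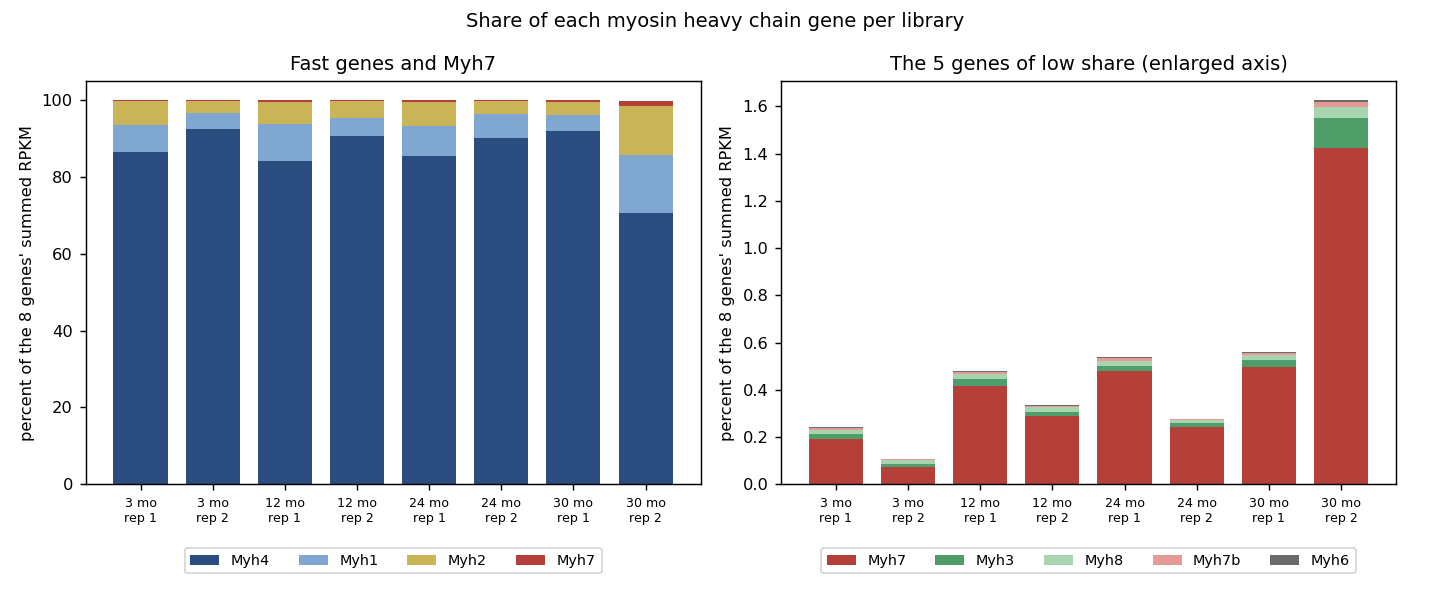
Stacked bars of each gene's share of the summed RPKM of the 8 myosin heavy chain genes in each of the 8 libraries, in percent, on the full scale (left: Myh4, Myh1, Myh2, Myh7) and on an enlarged scale from 0 (right: Myh7, Myh3, Myh8, Myh7b, Myh6). Myh4 lies between 84.0% and 92.4% in 7 libraries and at 70.6% in replicate 2 of 30 months, and Myh7 is the largest of the 5 minor genes in every library.

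Ratios of 2 chains within a library were steadier than the levels for some pairs. The log2 ratio of slow Myh7 to fast Myh2 was -5.00 and -5.45 in the 3 month libraries, -3.77 and -3.93 in those of 12 months, -3.67 and -3.79 in those of 24 months, and -2.72 and -3.15 in those of 30 months. All later libraries were above 3 months and both of 30 months were above all others, although the levels of both genes differed strongly between the 2 libraries of 30 months. Put as a fold, Myh2 was 32.1 and 43.6 times Myh7 at 3 months and 6.59 and 8.91 times at 30 months. For Myh7 to Myh4, the libraries of 24 months overlapped those of 12 and of 30 months, while both of 30 months were above both of 12 months and both of 3 months below all others. As a fold, Myh4 was at 451 and 1280 times Myh7 in the 3 month libraries, 202 and 316 times in those of 12 months, 178 and 370 times in those of 24 months, and 185 and 49.6 times in those of 30 months.

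The beta to alpha ratio, Myh7 to Myh6, was 5.39 and 5.78 on the log2 scale in the 3 month libraries, 6.65 and 6.38 in those of 12 months, 6.40 and 6.93 in those of 24 months, and 7.29 and 7.30 in those of 30 months. Its ages stood in the same order as Myh7 to Myh2, with 12 and 24 months overlapping. Between the slow chains, Myh7 to Myh7b was 4.68 and 4.73 in the 3 month libraries, 5.79 and 5.34 in those of 12 months, 5.54 and 5.85 in those of 24 months, and 5.66 and 6.26 in those of 30 months. That ratio was higher at every later age than at 3 months and did not separate the later ages from each other. Among fast chains no ratio ordered the ages. Myh4 to Myh1 was 3.60 and 4.40 in the 3 month libraries, 3.10 and 4.31 in those of 12 months, 3.44 and 3.84 in those of 24 months, and 4.47 and 2.23 in those of 30 months. Myh1 to Myh2 lay between 0.06 and 0.90 in all 8 libraries. With 2 libraries against 2 the smallest two-sided p of an exact permutation test is 0.333, so shares and ratios are given without a test.

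**Figure D3:**
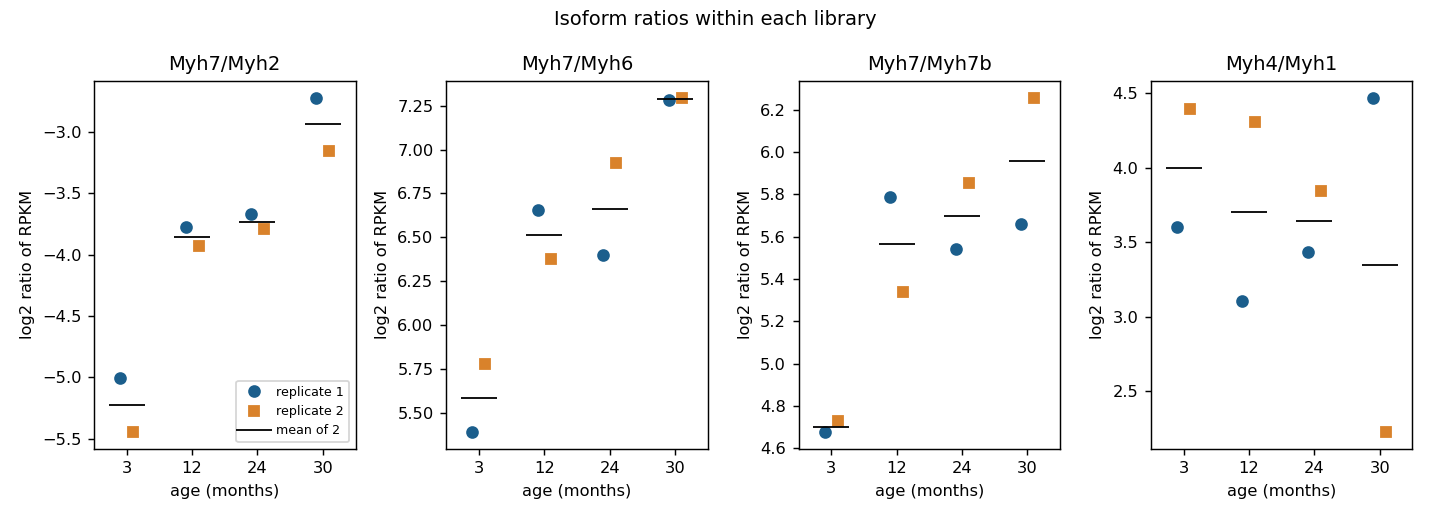
Log2 ratio of the RPKM of 2 myosin genes within each library (vertical axis, a scale of its own in each panel) against age in months, with a point per library and a bar at the mean of the 2. Myh7/Myh2 runs from -5.45 to -2.72 with no overlap between 3 months and later ages, while Myh4/Myh1 holds its highest and its lowest value at 30 months.

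The 2 libraries of an age differed in a recurring way. Taking replicate 1 minus replicate 2, the log2 difference of Myh4 was -0.82 in the 3 month libraries, -0.33 in those of 12 months, -0.66 in those of 24 months and 1.02 in those of 30 months. That of Myh2 was 0.24, 0.16, 0.28 and -1.31 in the same order, and that of Myh7 was 0.68, 0.32, 0.39 and -0.88. At 4 of 4 ages, Myh2, Myh7 and Myh6 were higher in the same library, and Myh4 was higher in the other. Myh7b followed Myh2 at 3 of 4 ages, and Myh1, Myh3 and Myh8 at 2 of 4. At 12, 24 and 30 months the library with more Myh2 and Myh7 and less Myh4 was the one with kidney transcripts, and the part of that library set in the myosin levels was not tested beyond the fit that holds it as a term. The ratio of Myh7 to Myh2 differed less between the libraries of an age than the level of Myh7 did, at 4 of 4 ages.

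**Figure D4:**
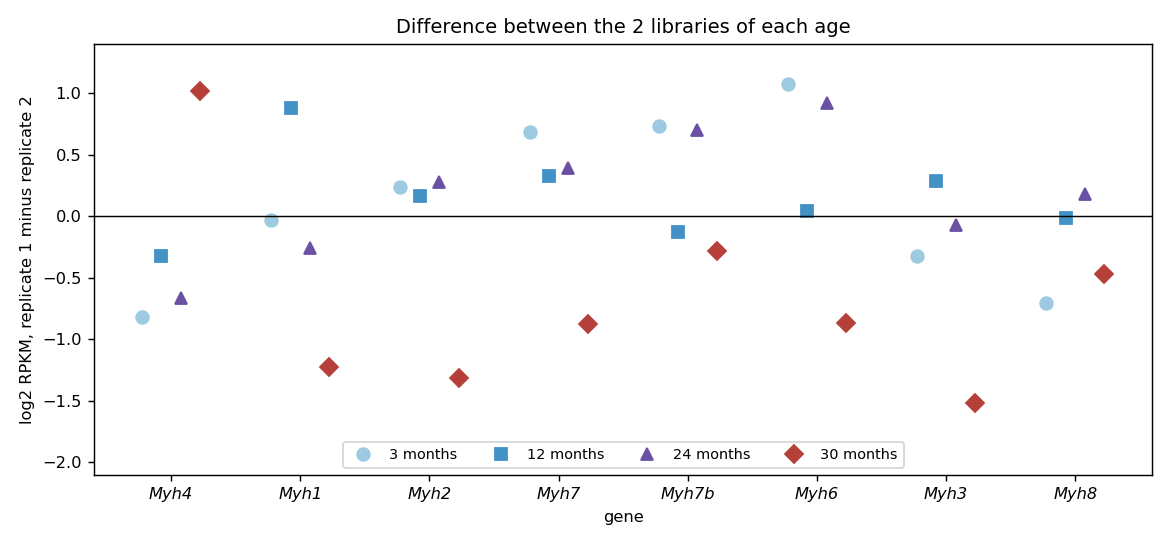
Difference in log2 RPKM between replicate 1 and replicate 2 of each age (vertical axis) for the 8 genes (horizontal axis), 1 point per age. For Myh2, Myh7 and Myh6 the 3 younger ages lie above 0 and 30 months below, and for Myh4 the signs are the opposite.

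Tests of age used edgeR's quasi-likelihood model of all genes, with Benjamini-Hochberg adjustment over 19571 genes and a call at an adjusted p under 0.05. The comparisons with 3 months share the same 2 control libraries and are not independent. Between 30 and 3 months 1 of the 8 genes was called, Myh7, against 0.148% of all tested genes. Myh7 rose 6.82-fold, a log2 fold change of 2.77 with SE 0.35 (adjusted p = 0.028), with both libraries of 30 months above both of 3 months. The call was lost when either library of 3 months (adjusted p of 0.137 without the first, 0.297 without the second) or of 24 months (0.0743 and 0.0837) was left out. It held without replicate 2 of 30 months, the library that stands apart, at a log2 fold change of 2.27 (adjusted p = 0.0161). Each such fit leaves 1 library at that age, which is assumed to vary like those of the other ages.

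The other 7 genes did not pass between 30 and 3 months, and 5 of the 8 had an unadjusted p under 0.05, all with higher values at 30 months, against 8.52% of all tested genes in either direction. DESeq2 called 3 of the 8, Myh7, Myh7b and Myh3, against 1.09% of all genes, and limma-voom 1, Myh7, against 0.118%. Myh3 had a log2 fold change of 1.88 with SE 0.42 (adjusted p = 0.211) and Myh7b 1.45 (SE 0.30, adjusted p = 0.149). Those of Myh6, Myh8, Myh2 and Myh1 were 1.02, 0.75, 0.60 and 0.53, and that of Myh4 was -0.21 (SE 0.45). Without replicate 2 of 30 months Myh3 was at 0.94, and the signs of Myh2, Myh1 and Myh4 turned, to -0.20, -0.20 and 0.21. Myh4 also turned without replicate 2 of 3 months, to 0.26. Myh2 and Myh1 turned with no other library left out.

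With the library set added as a term, 2 of the 8 genes were called between 30 and 3 months, against 2.13% of all tested genes. Myh7 was higher by 2.98 on the log2 scale (SE 0.25, adjusted p = 0.000447) and Myh7b by 1.59 (SE 0.27, adjusted p = 0.0195). Both libraries of 3 months are in the set with kidney transcripts, so in that fit the set is separated from age only by the later ages. Within that set alone, replicate 2 of 30 months differed from the mean of 3 months on the log2 scale by 3.19 for Myh7, 2.46 for Myh3, 1.63 for Myh7b, 1.11 for Myh2 and -0.75 for Myh4. In the set without kidney transcripts, which holds no library of 3 months, 30 months exceeded 12 months by 0.88 for Myh7, 0.67 for Myh3 and 0.55 for Myh7b, with Myh4 at 0.10 and Myh2 at -0.34.

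The change of Myh7 was smaller at the earlier ages, while Myh1 and Myh4 had log2 fold changes of 0.64 and 0.25 at 24 months, neither of them called. Myh7 was 2.95 times its 3 month level at 12 months, a log2 fold change of 1.56 with SE 0.34 (adjusted p = 0.436), and 3.51 times at 24 months, a log2 fold change of 1.81 with SE 0.34 (adjusted p = 0.195). In edgeR 0 of the 8 genes were called in either comparison, where 0.0409% and 0.102% of all genes were. An unadjusted p under 0.05 was reached by 2 genes in each, Myh7 and Myh7b, against 5.5% of all genes at 12 months and 7.56% at 24 months. DESeq2 called Myh7 in each, against 0.332% and 0.69% of all genes, and limma-voom called 0. With the set as a term Myh7 was called at both ages, with adjusted p = 0.0248 at 12 months and 0.0085 at 24 months, against 0.148% and 0.363% of all genes.

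**Figure D5:**
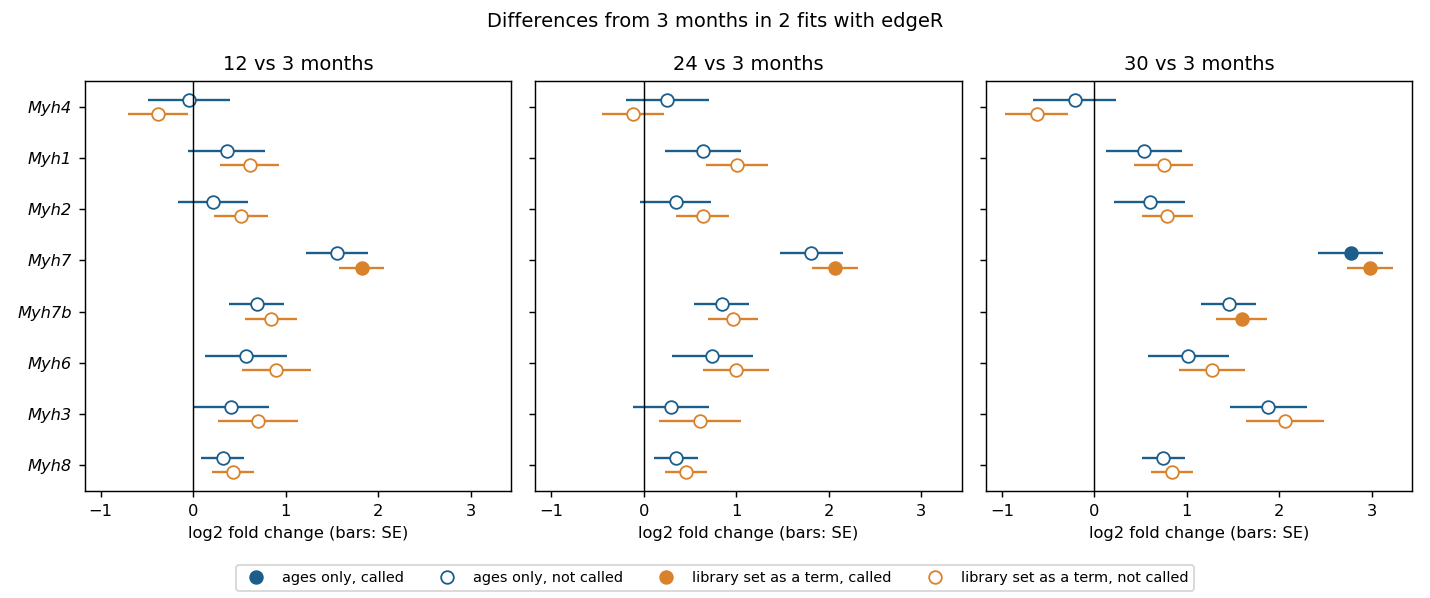
Log2 fold change of the 8 genes (rows) at 12, 24 and 30 months against 3 months (panels, 1 shared scale), from edgeR with the ages alone (blue) and with the library set as a term (orange), bars showing the SE and filled points a call. Myh7 has the largest value in every panel, filled at 30 months in both fits and at 12 and 24 months only with the set as a term.

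Among the later ages 0 of the 8 genes were called by edgeR. Between 30 and 12 months, with 0.00511% of all genes called, Myh3 had a log2 fold change of 1.47 with SE 0.41 (adjusted p = 0.708), Myh7 of 1.21 (SE 0.33, adjusted p = 0.679) and Myh7b of 0.77 (SE 0.29, adjusted p = 0.883). These 3 had an unadjusted p under 0.05, as did 5.21% of all genes. DESeq2 called Myh7 and Myh3, against 0.317% of all genes, and limma-voom 0. Between 24 and 12 months, and between 30 and 24 months, the share of all genes called by edgeR was 0%, and 3.07% and 3.1% had an unadjusted p under 0.05. The first of these pairs had no member at an unadjusted p under 0.05 and its largest log2 fold change was 0.30, for Myh4. The second had 2, Myh3 at 1.59 (SE 0.41) and Myh7 at 0.96 (SE 0.33), and DESeq2 and limma-voom called 0 of the 8 in both pairs, where DESeq2 called 0.0204% and 0% of all genes. Over all 4 ages together, 0.0613% of genes passed and Myh7 had an adjusted p of 0.136. DESeq2 called Myh7, Myh7b and Myh3 in that test, against 1.18% of all genes, and limma-voom 0. An unadjusted p under 0.05 was reached by 3 of the 8 and by 5.66% of all genes.

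As a slope on age, Myh7 gained 0.0884 per month on the log2 scale (SE 0.015, adjusted p = 0.0629) and Myh7b 0.047 (SE 0.0101, adjusted p = 0.103), short of the threshold that 0.133% of genes passed. The other slopes were 0.0592 for Myh3, 0.0337 for Myh6, 0.0235 for Myh8, 0.0211 for Myh1, 0.0201 for Myh2 and -0.0009 for Myh4. DESeq2 called 2 of the 8 slopes, those of Myh7 and Myh7b, against 1.52% of all genes, and limma-voom 0. An unadjusted p under 0.05 was reached by 5 of the 8 slopes and by 9.83% of all. With the set as a term Myh7b passed (0.0493 per month, adjusted p = 0.0352), where 1.51% of all genes did, and Myh7 did not (adjusted p = 0.0661).

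Partners of the slow chain in the sarcomere were listed with their fast counterparts. Both lists were chosen with earlier results of these data known and come from the same libraries. Their counts are therefore no independent support for the change of Myh7. Of 13 slow fibre genes of the thin and thick filament and of calcium handling, 13 had positive log2 fold changes between 30 and 3 months, with a median of 1.19 against 0.0093 over all genes. edgeR and limma-voom called 0 of them, against 0.148% and 0.118% of all genes, and DESeq2 6, against 1.09%. In edgeR 11 of the 13 had an unadjusted p under 0.05, against 8.52% of all genes. The slow troponin T gene Tnnt1 was at 50.8 and 23.2 CPM in the 3 month libraries, 98.3 and 76.8 in those of 12 months, 108 and 91.5 in those of 24 months, and 145.5 and 212.8 in those of 30 months, with a log2 fold change of 2.28 with SE 0.36 (adjusted p = 0.0663). The slow calcium pump gene Atp2a2 was at 151 and 140.1 CPM at 3 months and 276 and 531 at 30 months, the slow tropomyosin gene Tpm3 at 85.9 and 39.1 and at 184 and 264, and the M-band gene Myom3 at 64.2 and 51.6 and at 106 and 182. None of these 4 overlapped between the 2 ages, but they were picked by the lowest p in this comparison, so the separation is no support of its own. With the set as a term, where 2.13% of all genes were called, 6 of the 13 were, Atp2a2 and Tnnt1 with Actn2, Casq2, Myl2 and Myl3, the last 4 named after their values were seen. Without replicate 2 of 30 months 11 of 13 were positive and the median was 0.87.

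Of 13 fast fibre genes 0 were called by edgeR, DESeq2, limma-voom or the fit with the set. The shares of all genes called were 0.148%, 1.09%, 0.118% and 2.13% in that order. In edgeR 0 of the 13 had an unadjusted p under 0.05, against 8.52% of all genes. At such shares, counts of 0 among 13 genes do not show that these genes were unchanged. The median was -0.10, with 11 negative, and it turned to 0.10 with 9 positive without replicate 2 of 30 months. With the set as a term it was -0.35 with 12 negative, and 4 of the 13 had an unadjusted p under 0.05, all lower at 30 months, against 14.7% of all genes in that fit. The Z-disc gene Myoz1 was at 1676 and 1918 CPM at 3 months and 1483 and 1006 at 30 months, and the calcium buffer gene Pvalb at 6487 and 7190 and at 6209 and 3254. Myl1 and Casq1, a fast myosin light chain and the fast calsequestrin, had log2 fold changes of -0.37 and -0.40. Like Myh4, Myoz1 and Pvalb were lowest in replicate 2 of 30 months.

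Regulators of fibre type, 34 genes such as Eya1, Nfatc1 and Mef2c, had a median of 0.04 with 18 positive. edgeR, DESeq2 and limma-voom called 0 of them, against 0.148%, 1.09% and 0.118% of all genes. Of the 34, 4 had an unadjusted p under 0.05, a share near the 8.52% of all genes. By the lowest p, the 4 were Vgll2, a cofactor of TEAD factors (log2 fold change 0.62, SE 0.20), Hdac4, a deacetylase that represses MEF2 (0.54, SE 0.20), Nfatc2, a calcineurin target (0.53, SE 0.22), and Eya1, a transcriptional cofactor (-0.36, SE 0.14). With the set as a term 3 were called, Vgll2 with Dio2 and Prox1, the last 2 named after their values were seen, against 2.13% of all genes, and the median was -0.04. Among 12 genes of myosin folding, thick filament assembly and turnover the median was -0.04 with 5 positive. edgeR and limma-voom called 0, against 0.148% and 0.118% of all genes. Of the 12, 1 had an unadjusted p under 0.05, a share near the 8.52% of all genes. This was Hspb7, a small heat shock protein gene, at 122 and 119 CPM at 3 months and 191 and 343 at 30 months (log2 fold change 1.15, SE 0.27, adjusted p = 0.212). DESeq2 and the fit with the set called it, against 1.09% and 2.13% of all genes. Trim63, a ubiquitin ligase that targets myosin, was at -0.45 (SE 0.20), and Myom1, an M-band gene, at 0.39 (SE 0.26).

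Embryonic and neonatal chains are made beside other genes of developing, regenerating or denervated fibres. Of 15 such genes, listed with earlier results of these data known, 13 had positive log2 fold changes between 30 and 3 months. The median of the 15 was 1.08, against 0.0093 over all genes. edgeR called 1, against 0.148% of all genes. This was the keratin gene Krt18, at 0.173 and 0.0556 CPM at 3 months and 6.20 and 9.76 at 30 months. Its value in replicate 2 of 3 months is close to the 0.0529 CPM that a count of 0 allows there, so the size of its fold change is uncertain. The transcription factor gene Runx1 was at 5.66 and 6.42 CPM at 3 months and 13.9 and 16.3 at 30 months, the acetylcholine receptor gene Chrna1 at 7.58 and 9.99 and at 15.3 and 23.2, and Gadd45a at 14.9 and 14.2 and at 31.5 and 41.9. Both libraries of 30 months were above both of 3 months in all 4, which were picked by the lowest p in this comparison, so the separation is no support of its own. DESeq2 called 5 of the 15, against 1.09% of all genes, limma-voom 1, against 0.118%, and the fit with the set 8, against 2.13%. In edgeR 10 of the 15 had an unadjusted p under 0.05, all higher at 30 months, against 8.52% of all genes. At 12 against 3 months DESeq2 called 1 of the 15 higher and 1 lower, against 0.332% of all genes. Without replicate 2 of 30 months, which had the highest Myh3, the median was 0.29.

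Genes whose levels ran most like those of a chain over the 8 libraries were taken from 9639 genes by Pearson correlation of log2 CPM, a description in which all points share libraries, depth and the library sets. For Myh7 these were Tnnt1 (0.986), Arpp19 (0.972), Cyfip2 (0.969) and Tpm3 (0.955). For Myh7b they were Cd82 (0.963), Tnni1 (0.958), Tnnt1 (0.955) and Tpm3 (0.955), so Tnnt1 and Tpm3 appear for both slow chains. Nearest to Myh2 were Atp1b3 (0.972), Tacc1 (0.970), Fhl1 (0.967) and Sipa1l2 (0.964), and to Myh1 Got1 (0.982), Os9 (0.976), Ech1 (0.957) and Nt5c3b (0.930). For Myh4 they were Setbp1 (0.986), Thoc3 (0.981), Ube2d1 (0.970) and Mau2 (0.969). For Myh3 they were Ncam1 (0.975), Lgals3 (0.972), Slc43a2 (0.970) and Aldh16a1 (0.957), and Ncam1 and Lgals3 were at 13.9 and 13.6 CPM in replicate 2 of 30 months, against at most 8.96 and 5.18 CPM elsewhere. Between the 8 genes themselves, Myh7 with Myh7b had 0.946, Myh7b with Myh6 0.904 and Myh7 with Myh6 0.844. Next came Myh3 with Myh8 at 0.838 and Myh1 with Myh2 at 0.802. Myh4 was negative with each of the other 7, from -0.73 with Myh2 to -0.17 with Myh8.

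Antisense genes overlap several of the chains, and because the sources used here do not give the strand setting of the counting, reads of such pairs cannot be told apart. Myhas shares 515 exon bases with Myh1, 8.11% of its exon length, and was at 37.2 to 52.4 CPM, and its log2 fold change between 30 and 3 months was -0.16 (SE 0.17). 9430073C21Rik shares 237 exon bases with Myh2 and was at 6.22 and 3.23 CPM at 3 months and 4.75 and 13.4 at 30 months (0.94, SE 0.47). As for Myh2, its libraries of 30 months lay far apart. Mhrt shares 463 exon bases with Myh7 and had 3 and 5 counts at 3 months and 17 and 20 at 30 months. Its log2 fold change of 2.20 with SE 0.49 (adjusted p = 0.194) was in the direction of Myh7. Trpc4ap, which shares 37 exon bases with Myh7b, was at 0.10 (SE 0.16). The long noncoding RNA gene 2310065F04Rik, between Myh3 and Myh2 in the annotation, was at 79.0 and 93.9 CPM at 3 months and 76.6 and 47.1 at 30 months, and passed with the set as a term only (-0.82, SE 0.15, adjusted p = 0.0221).

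Other myosin heavy chains of class II, of nonmuscle cells, smooth muscle and eye muscles, were listed too. All 5 tested had positive log2 fold changes between 30 and 3 months (median 0.40, against 0.0093 over all genes). edgeR and limma-voom called 0, against 0.148% and 0.118% of all genes. DESeq2 called 1, Myh14, the nonmuscle IIC chain, against 1.09% of all genes. Myh14 was at 23.6 and 31.1 CPM in the 3 month libraries, 35.1 and 58.1 in those of 12 months, 48.9 and 48.3 in those of 24 months, and 64.0 and 50.2 in those of 30 months (1.06, SE 0.25, adjusted p = 0.207), with every later library above both of 3 months. The nonmuscle IIA chain gene Myh9 was at 107 and 124 CPM at 3 months and 138 and 160 at 30 months. Myh14 and Myh9 were picked by the lowest p between 30 and 3 months, so their separation from 3 months is no support of its own. Whether these changes differ from that of Myh7 was not tested. Without replicate 2 of 30 months the median of the 5 was -0.31, with 2 positive.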

How the data were processed

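The authors deposited whole-number counts per Ensembl gene for each of the 8 libraries, not normalized, with exon positions and summed exon length. The submitters' processing notes list STAR 2.5.2b, Subread 1.5.2, featureCounts and Trimmomatic 0.36, and the builds mm10 and GRCm38, and assign no roles. Annotation release, strand setting and the handling of multiply matching reads: not given in the sources used here. GENCODE M21 symbols matched 48970 of 49315 identifiers.

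Counts were fitted in R 4.3.3 with edgeR 4.0.16 (filterByExpr, TMM, robust quasi-likelihood, ages as a factor over 8 libraries, 4 residual degrees of freedom; slope on months in a separate model). SE is the log2 fold change over the square root of F. RPKM are TMM-scaled CPM per kb of exon length. Alternatives were RLE factors, library totals alone, other filters, DESeq2 1.42.0, limma-voom (limma 3.58.1), a replicate block, the library set (9 kidney genes above 1 CPM) as a term, fits of only the libraries compared, and each library left out. The procedure was also run on simulated counts, and the outcome is not given here. These were drawn without library sets or an outlying library, so the run cannot show how either affects the calls. Libraries of an age differed by more than sampling noise (chi-square per degree of freedom of at least 44.1).

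The genes, lists and tests were chosen with earlier results of these data known. From each list, up to 4 genes with the lowest p between 30 and 3 months were named (2 for lists of fewer than 8), and for 6 chains the 4 genes of highest correlation with an average log2 CPM of at least 2. One gene named by this rule is not reported here. No alternative splicing was analysed here.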

Additional observations from a re-analysis of the deposited data

How the results depend on the processing

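Between 30 and 3 months, the number of the 8 genes called moved from 1 to 0 with library totals alone, with a replicate block and with only the libraries compared, to 2 when the library set was a term, and to 3 without a low count filter and with DESeq2. Over all genes, calls went from 29 of 19571 to 378 of 33615 without a filter, 214 of 19571 with DESeq2 and 416 of 19571 with the set. They were 25 of 19571 with library totals alone, 13 of 19571 with the block and 33 of 18778 with only the libraries compared. Fits with a library left out have 1 library at an age, so the number of genes they called is not given here. At 12 against 3 months no filter, DESeq2 and the set as a term each gave 1, against 0.399%, 0.332% and 0.148% of all genes. At 24 against 3 months each gave 1 again, against 0.693%, 0.69% and 0.363%, and only the libraries compared gave 1, against 0.243%. Between 30 and 12 months no filter gave 1 and DESeq2 2, against 0.414% and 0.317%. Across ages no filter gave 2, DESeq2 3 and the set 1, against 1.4%, 1.18% and 1.04%. For the slope no filter gave 1, DESeq2 2 and the set 1, against 0.318%, 1.52% and 1.51%. The cause of these moves was not tested.

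Myh7 between 30 and 3 months kept its direction in all 17 alternatives, from 2.27 to 3.15, with adjusted p from 3.75e-17 to 0.297, and lost its call in 7 of them. Deviations of same-numbered libraries from the mean of their age correlated at -0.357 to 0.262 between ages. With 2 libraries per age, a pairing by replicate number cannot be judged from these values. With the replicate number as a block Myh7 was at 2.81 (adjusted p = 0.0687).

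Signs turned for genes that were never called. Leaving out a library took Myh4 from -0.81 to 0.26 between 30 and 3 months, -0.12 to 0.72 at 24 and -0.40 to 0.43 at 12 against 3 months, -0.77 to 0.26 between 30 and 12 months, and -0.0110 to 0.0112 per month for the slope. The set as a term gave Myh4 -0.12 at 24 months, limma-voom 0.0072 at 12 months, and the block a slope of 0.0011. Over the libraries left out Myh1 ran from -0.20 to 1.02 (30 against 3 months), -0.14 to 0.72 (12 against 3) and -0.56 to 0.68 (30 against 12), Myh2 from -0.20 to 1.11 and -0.42 to 0.89 (30 against 3 and against 12), and Myh6 from -0.056 to 0.81 (30 against 12). With counts not divided by length or divided by coding length, 12 share values and 30 ratio values moved by more than 1 SD, all of pairs or genes that involve Myh7, Myh7b, Myh8 or the pair Myh1 and Myh2.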
